A study of Mus musculus with 6 samples.

Results

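The inflammasome genes described here are 10 genes that encode the sensors Nlrp3, Nlrc4, Naip5 and Aim2, the NLRP3-binding kinase Nek7, the adaptor Pycard, the caspases Casp1, Casp4 and Casp8, and the pore-forming effector Gsdmd. They were picked by gene symbol, as a pathway set, from the 31426 genes of the count table, and all 10 were present and passed the filter on low counts. RNA-seq had been run on polyA RNA of CD11c+ cells that were taken from mouse livers after 14 weeks of high-fat diet (HFD), in order to ask what loss of the autophagy gene Atg5 does to these cells. There were 3 Atg5 CD11cKO libraries, numbered 25, 26 and 27, and 3 WT libraries, numbered 21, 22 and 23. The Atg5 CD11cKO mice carried a floxed Atg5 allele and Cre recombinase driven by CD11c, a promoter active in dendritic cells (DCs) and in CD11c-expressing macrophages, so that Atg5 was deleted in those cells and not in the rest of the liver. The WT controls were floxed littermates, and all mice were C57BL/6 and received HFD. The labels give an age of 4 to 8 weeks. That is less than the 14 weeks of diet, so it cannot be the age at which the cells were taken. Cells were isolated on CD11c microbeads, which take any cell with CD11c on its surface. No label ties a library to a mouse or a pool of mice, and the p-values below therefore cover only the spread between these libraries, which may be technical.

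An inflammasome is a cytosolic complex in which a sensor, once triggered, gathers the adaptor ASC (encoded by Pycard) and the protease caspase-1. Active caspase-1 matures the cytokines IL-1β and IL-18 and cleaves gasdermin D, whose released fragment opens pores in the plasma membrane and can end in the lytic death called pyroptosis. In myeloid cells, transcription of sensor and cytokine genes is a priming step that precedes assembly, and autophagy is known to restrain NLRP3 activity by removing damaged mitochondria and inflammasome parts. RNA levels measure supply of the parts and not assembly or cleavage.

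1 library went against its label. The targeted gene Atg5 was at 21.3, 21.0 and 20.8 CPM (counts scaled to a common depth, with TMM factors between libraries) in Atg5 CD11cKO 25, 26 and 27, against 54.0 CPM in WT 21, 49.8 CPM in WT 22 and 22.1 CPM in WT 23. Over the 13036 to 13433 genes with enough counts in a pair of libraries, the median chi-square per gene, a measure of the distance in units of counting noise, was 2.60 to 3.22 between the library labelled WT 23 and the Atg5 CD11cKO libraries, 2.84 to 3.06 among the Atg5 CD11cKO libraries, 4.63 between WT 21 and WT 22, and 16.0 to 17.3 between WT 21 or WT 22 and any other library. Each member's result is therefore given for the 6 libraries as labelled and again with WT 23 left out, which was decided with these values known. Depth was even, with totals of 31103044 to 32699529 counts in Atg5 CD11cKO libraries and 31064570 to 34034675 counts in WT libraries. Itgax, which encodes CD11c, the protein used to isolate the cells, was at 464 to 492 CPM in Atg5 CD11cKO libraries, against 432 and 444 CPM in WT 21 and 22 and 472 CPM in WT 23. It passed as higher with WT 23 left out (log2 fold change 0.14, SE 0.04, adjusted p = 0.015, edgeR) and not as labelled (0.09, SE 0.08, adjusted p = 0.54). The libraries also differed in cell type markers, whose summed values stand beside the results they move with.

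Promoter sequences are shown for the 4 genes that passed the test without the library labelled WT 23 (Casp1, Nlrc4, Casp8 and Nek7) and for Nlrp3, the sensor best known in fatty liver. Each is the 250 bases before a RefSeq transcript start (GRCm38.p6), 5′ to 3′ on the gene's strand, with matches to the motifs searched in capitals. Casp1 is read from chr9:5298267-5298516 (+), Nlrc4 from chr17:74459109-74459358 (-), Casp8 from chr1:58802252-58802501 (+), Nek7 from chr1:138619758-138620007 (-) and Nlrp3 from chr11:59541319-59541568 (+).
Casp1: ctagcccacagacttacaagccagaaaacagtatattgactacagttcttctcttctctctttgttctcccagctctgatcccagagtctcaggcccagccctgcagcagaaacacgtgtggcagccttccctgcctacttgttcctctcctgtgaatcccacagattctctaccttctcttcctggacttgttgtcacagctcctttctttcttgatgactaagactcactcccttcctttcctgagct
Nlrc4: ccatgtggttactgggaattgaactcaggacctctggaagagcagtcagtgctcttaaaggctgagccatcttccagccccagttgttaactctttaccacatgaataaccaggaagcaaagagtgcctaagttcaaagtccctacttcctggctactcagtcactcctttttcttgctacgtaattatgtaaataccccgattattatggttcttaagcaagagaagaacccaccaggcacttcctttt
Casp8: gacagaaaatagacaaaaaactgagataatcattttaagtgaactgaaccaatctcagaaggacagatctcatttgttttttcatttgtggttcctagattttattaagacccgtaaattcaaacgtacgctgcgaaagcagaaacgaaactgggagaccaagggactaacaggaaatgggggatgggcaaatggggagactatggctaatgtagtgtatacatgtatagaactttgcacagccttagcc
Nek7: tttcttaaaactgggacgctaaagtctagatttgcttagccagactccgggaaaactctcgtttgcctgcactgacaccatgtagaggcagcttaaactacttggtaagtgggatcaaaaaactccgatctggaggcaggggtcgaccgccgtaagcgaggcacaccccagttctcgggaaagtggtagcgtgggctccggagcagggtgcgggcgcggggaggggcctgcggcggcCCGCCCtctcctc
Nlrp3: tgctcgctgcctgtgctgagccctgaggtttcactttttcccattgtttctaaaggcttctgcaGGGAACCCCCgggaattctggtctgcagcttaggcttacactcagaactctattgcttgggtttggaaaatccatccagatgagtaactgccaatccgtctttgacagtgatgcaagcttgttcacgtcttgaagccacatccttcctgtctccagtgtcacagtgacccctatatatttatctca

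Nlrp3 and Casp4 each had a pair of starts. The capitals in the Nlrp3 promoter mark an NF-kB match at position -186 from the first start, and the window of the other Nlrp3 start, at chr11:59542436-59542735, held no match. The capitals in the Nek7 promoter mark a GC box match on the opposite strand at -13. The promoters of Casp1, Nlrc4 and Casp8 held no match to any of the 8 motifs searched on both strands. The Casp8 window, from 58802252, lies inside the annotated gene, which begins at 58795374. The Aim2 window, from 173420354, likewise lies inside a gene that begins at 173350879. The Nek7 window, from 138619708 to 138620007, also lies inside its gene, which begins on the minus strand at 138620141. The window of the other Nlrp3 start lies inside a gene that begins at 59541568. Sequence before the annotated beginnings of Casp8, Aim2 and Nek7 was not searched. The windows searched ran from 250 bases before to 50 bases after each start. RefSeq listed 11 such windows for 9 members, and Gsdmd was not matched. An NF-kB match was found in 3 of the 9 members, Nlrp3, Casp4 and Naip5, and in 8.46% of 32851 mouse promoters. The members were counted by gene, with a match in any window of a gene, and the percentage by single window. These are not like units, and no excess is read from them. Casp4 had overlapping matches at -93 and -92 and another on the opposite strand at -39, counted from the first of its pair of starts, and Naip5 had a match at -218 next to a TATA box match (TATAAA, 13.6% of promoters) on the opposite strand at -236. Aim2 held a match to PU.1, a transcription factor of myeloid cells (GAGGAAGT, 3.20% of promoters), at -113, with a GC box (GGGCGG, 35.7% of promoters) at -95. Pycard held a PU.1 match on the opposite strand at -44 and a GC box at 26. The interferon-stimulated response element (3.44% of promoters), the ETS-IRF composite element (2.72%), AP-1 (TGANTCA, 7.81%) and CRE (TGACGTCA, 1.79%) had no match in any member's window. Nek7 was the only CpG-rich one, with 23 CpG in 300 bases against 1 to 5 in the other members' windows and a median of 7 (quartiles 3 and 20) over all promoters. A match describes letters only.

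Over all libraries, the order of the members by counts per annotated exon length was led by the effector. That length takes in every base of any annotated exon of the gene. For Pycard it was 3800 bases, in a gene that spans 127989708 to 127993867. Where the transcripts made are shorter than this length, the level is understated. The place of Pycard, and the lead of Gsdmd over it, therefore depend on the length used. Levels can be compared between genes only per length, so counts were divided by the exon length of each gene and scaled to TPM, a scale used here for the order of levels and not for differences between genotypes. Gsdmd averaged 182 TPM over the 6 libraries (158 to 201), Casp1 102 TPM (69.0 to 123) and Casp8 83.5 TPM (60.3 to 97.6). Pycard averaged 53.7 TPM (45.8 to 58.3). The sensor Nlrp3 averaged 36.4 TPM, its partner Nek7 33.8 TPM and the DNA sensor Aim2 29.7 TPM, and the library ranges of Nlrp3 and Nek7, and of Nek7 and Aim2, overlapped. Naip5 followed with 17.1 TPM, and the lowest levels were those of Casp4, with 9.59 TPM, and Nlrc4, with 6.93 TPM, whose ranges overlapped as well. The ranges of Casp1 and Casp8 also overlapped, and those of the other 5 neighbouring pairs in the order did not. By level per length, 95.4% of detected genes lay below Gsdmd and 46.2% below Nlrc4.

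**Figure D1:**
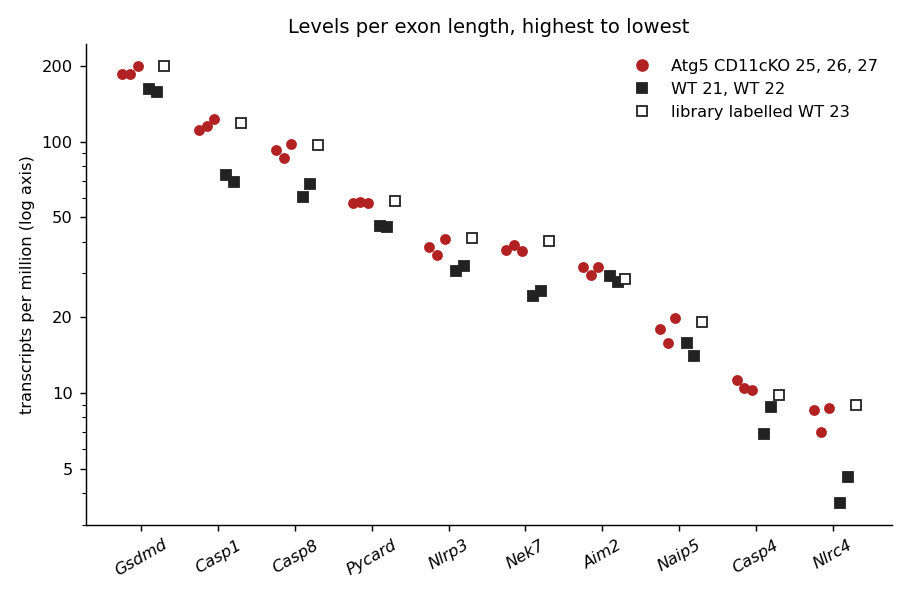
Level of each member per exon length (TPM, log axis) in Atg5 CD11cKO libraries (red circles), WT 21 and 22 (filled squares) and the library labelled WT 23 (open squares). Gsdmd lies highest, at 158 to 201 TPM, and Nlrc4 lowest, at 3.66 to 8.93 TPM.

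In the 6 libraries as labelled, none of the 10 members passed the test between genotypes. All 10 had a positive log2 fold change, with a median of 0.16, from 0.03 for Aim2 to 0.44 for Nlrc4. Over all genes tested the median was -0.01, and the share of genes with a positive value was not counted. The members share the same libraries, so their common sign is no support for a joint rise. By edgeR's quasi-likelihood test 0 of 10 passed at an adjusted p of 0.05, where 0.0% of the 17499 genes tested did, and 0 of 10 had an unadjusted p under 0.05, where 14.4% of the genes tested did. With DESeq2, 0 members and 2.31% of 17978 genes passed. Casp4 was the single member in which every Atg5 CD11cKO library stood above every WT library, an ordering found in 9.59% of the genes tested. Without the library labelled WT 23, 4 members passed as higher in Atg5 CD11cKO cells, Casp1, Nlrc4, Casp8 and Nek7, and 0 passed as lower, while 15.9% of the 18241 genes tested passed as higher and 15.1% as lower. The median log2 fold change of the members was 0.24, against -0.01 over all genes tested. In 8 of 10 members all Atg5 CD11cKO libraries lay above both WT 21 and WT 22, as they did in 27.0% of the genes tested. The exceptions were Naip5 and Aim2. In such bulk samples, fewer cells of a type and less RNA per cell cannot be told apart.

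**Figure D2:**
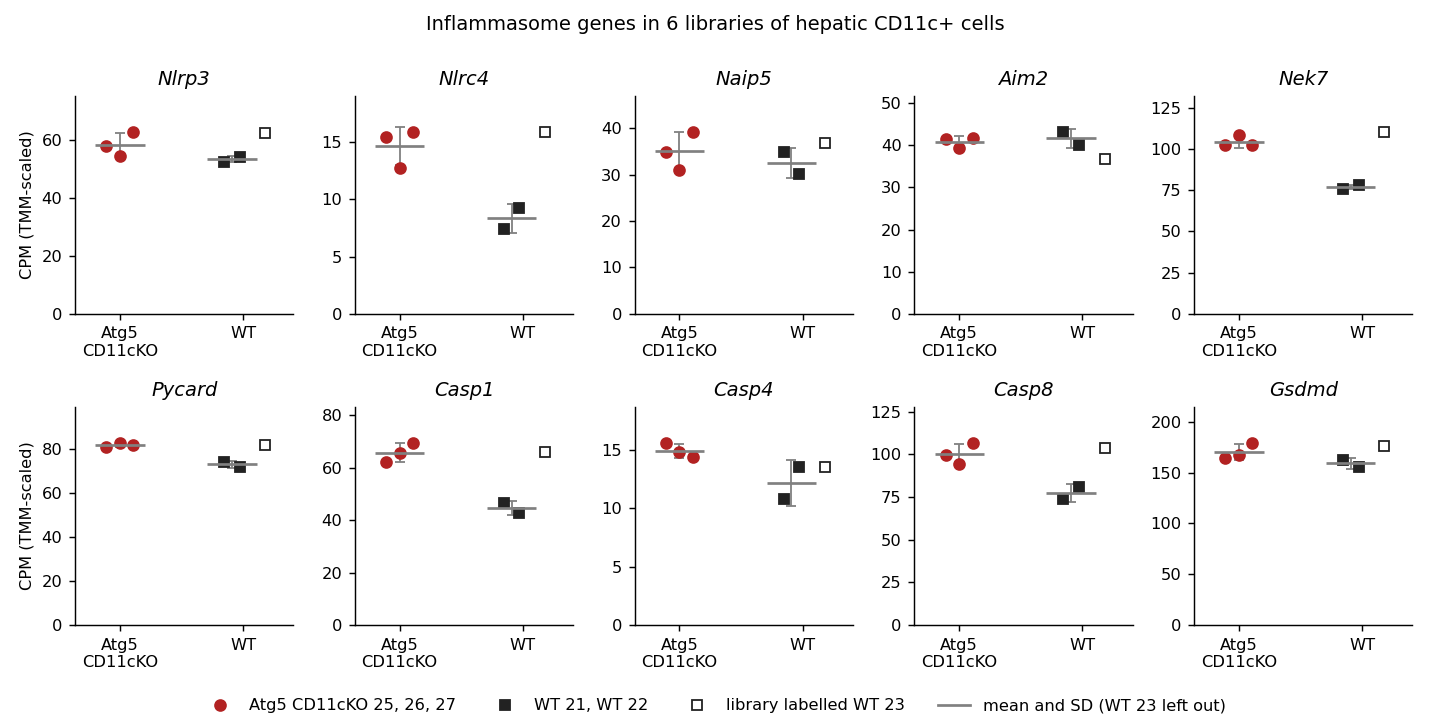
CPM of each member in Atg5 CD11cKO libraries (red circles, left), WT 21 and 22 (filled squares) and the library labelled WT 23 (open square), with grey lines and bars for the mean and SD without WT 23. In Casp1, Nlrc4, Casp8 and Nek7 the open square lies with or just above the red circles, for example at 66.0 CPM in Casp1 beside 62.3 to 69.4 CPM in Atg5 CD11cKO libraries and 46.6 and 42.8 CPM in WT 21 and 22.

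Among the sensors, the clearest difference was in Nlrc4, the NOD-like receptor that NAIP proteins recruit once they have bound flagellin or bacterial secretion proteins. The gene lies on chromosome 17 of mm10 from 74425438 to 74459142, on the minus strand. Nlrc4 was at 15.4, 12.8 and 15.8 CPM in Atg5 CD11cKO libraries, against 7.44 CPM in WT 21, 9.24 CPM in WT 22 and 15.9 CPM in the library labelled WT 23. The lowest Atg5 CD11cKO library thus lay above WT 21 and WT 22, and the library labelled WT 23 above all others. Without it the mean was 14.7 ± 1.66 CPM in Atg5 CD11cKO (SD, n = 3) and 8.34 ± 1.27 CPM in WT (SD, n = 2). The log2 fold change was 0.82 (SE 0.17), with an adjusted p of 0.0040 by edgeR's quasi-likelihood test. As labelled it was 0.44 (SE 0.28), with an adjusted p of 0.45. Nlrc4 had 239 to 504 estimated counts per library.

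Nlrp3, which senses potassium loss, crystals and damaged organelles, lies on chromosome 11 from 59541568 to 59566956, on the plus strand. It was at 57.6, 54.5 and 62.6 CPM in Atg5 CD11cKO libraries, against 52.4 CPM in WT 21, 54.0 CPM in WT 22 and 62.3 CPM in the library labelled WT 23. All Atg5 CD11cKO values lay above those of WT 21 and 22, with Atg5 CD11cKO 26 nearly level with WT 22. By edgeR the log2 fold change was 0.14 (SE 0.08, adjusted p = 0.25) without the library labelled WT 23 and 0.05 (SE 0.10, adjusted p = 0.81) as labelled, a difference within the spread between libraries by this test.

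Naip5, the mouse receptor for flagellin that acts through Nlrc4, lies on chromosome 13 from 100211739 to 100246323, on the minus strand. Its 35.0, 31.1 and 39.2 CPM in Atg5 CD11cKO libraries overlapped with the 34.8 CPM of WT 21, 30.2 CPM of WT 22 and 36.8 CPM of the library labelled WT 23. The log2 fold change was 0.12 (SE 0.12, adjusted p = 0.51, edgeR) without that library and 0.05 (SE 0.12, adjusted p = 0.86, edgeR) as labelled. Of the 50-base words of Naip5 exons, 36.8% also occur in other genes, foremost Naip6 with 22.3%, so its count is uncertain where reads could be split between copies. Of the copies, Naip2, which recognises the rod protein of secretion systems, was at 18.4, 19.0 and 22.8 CPM in Atg5 CD11cKO libraries, against 7.45 CPM in WT 21, 14.6 CPM in WT 22 and 22.5 CPM in the library labelled WT 23. Naip2 passed without that library, with a log2 fold change of 0.87 (SE 0.24, adjusted p = 0.017, edgeR), and not as labelled (0.43, SE 0.35, adjusted p = 0.54, edgeR). Naip1 and Naip6 missed the threshold in both comparisons. Naip1 had a log2 fold change of -0.66 (SE 0.32) without that library and -0.29 (SE 0.47) as labelled, and Naip6 one of -0.07 (SE 0.15) and -0.11 (SE 0.14) in the same comparisons. The sum over these 4 genes does not depend on how reads were split among the 4. It was 69.9, 66.3 and 81.1 CPM in Atg5 CD11cKO libraries, against 62.9 and 62.7 CPM in WT 21 and 22 and 77.7 CPM in the library labelled WT 23. The sum leaves out Naip3, which holds 14.5% of the words of Naip5 and 22.5% of those of Naip1. It can therefore still depend on how reads shared with Naip3 were assigned. The ratio of Nlrc4 to Naip5 counts within a library does not depend on scaling between libraries. It was 0.441, 0.411 and 0.404 in Atg5 CD11cKO libraries, against 0.214 and 0.306 in WT 21 and 22, and 0.432 in the library labelled WT 23. This follows from the level of Nlrc4, which passed, beside Naip5, which did not, and is no further support.

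Aim2, the sensor of cytosolic double-stranded DNA, lies on chromosome 1 from 173350879 to 173466040, on the plus strand. It was at 41.4, 39.3 and 41.8 CPM in Atg5 CD11cKO libraries, against 43.2 CPM in WT 21, 40.1 CPM in WT 22 and 36.7 CPM in the library labelled WT 23. The groups overlapped, and Aim2 was the single member with a negative log2 fold change without that library, -0.02 (SE 0.09, adjusted p = 0.88, edgeR), and as labelled it was at 0.03 (SE 0.09, adjusted p = 0.89, edgeR). Nek7, a kinase that binds NLRP3 and is required for its assembly, lies on chromosome 1 from 138482875 to 138620141, on the minus strand. Nek7 was at 102, 108 and 102 CPM in Atg5 CD11cKO libraries, against 75.9 CPM in WT 21, 77.9 CPM in WT 22 and 110 CPM in the library labelled WT 23. All Atg5 CD11cKO values lay far above WT 21 and 22, and the library labelled WT 23 was the highest of the 6. Without it the means were 104.3 ± 3.61 CPM in Atg5 CD11cKO (SD, n = 3) and 76.9 ± 1.38 CPM in WT (SD, n = 2). The log2 fold change was 0.45 (SE 0.06), with an adjusted p of 0.00020 by edgeR, while as labelled it was 0.24 (SE 0.15, adjusted p = 0.43). The opposite-strand gene Gm28501 overlaps Nek7 exons over 118 bases, and the use of strand in counting is not given. Gm28501 had 2.67 to 17.5 counts per library, beside 2440 to 3548 counts of Nek7. Within libraries, the ratio of Nek7 to Nlrp3 counts was 1.77, 1.99 and 1.63 in Atg5 CD11cKO libraries, against 1.45 and 1.44 in WT 21 and 22, and 1.77 in the library labelled WT 23. The ratio was higher in every Atg5 CD11cKO library than in WT 21 and 22. This follows from the level of Nek7, which passed, beside Nlrp3, which did not, and is no further support.

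Pycard, which encodes the adaptor ASC, lies on chromosome 7 from 127989708 to 127993867, on the minus strand. It was at 81.1, 82.8 and 82.1 CPM in Atg5 CD11cKO libraries, against 74.3 CPM in WT 21, 72.1 CPM in WT 22 and 82.0 CPM in the library labelled WT 23. The groups without that library did not overlap, with means of 82.0 ± 0.845 CPM in Atg5 CD11cKO (SD, n = 3) and 73.2 ± 1.59 CPM in WT (SD, n = 2), yet the log2 fold change of 0.17 (SE 0.06) missed the threshold with an adjusted p of 0.062 by edgeR. As labelled it was 0.11 (SE 0.08, adjusted p = 0.51, edgeR). With library totals in place of TMM factors it passed (log2 fold change 0.18, adjusted p = 0.044). An exon of the opposite-strand gene Gm45205 overlaps Pycard over 485 bases, and whether strand was used in counting is not given. Gm45205 itself had 4.24 to 16.6 counts in Atg5 CD11cKO libraries, against 10.6, 82.1 and 7.29 counts in WT 21, 22 and 23, beside 2390 to 2709 counts of Pycard.

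Casp1 encodes the protease that cuts pro-IL-1β, pro-IL-18 and gasdermin D, and lies on chromosome 9 from 5298517 to 5307265, on the plus strand. It was at 62.3, 65.7 and 69.4 CPM in Atg5 CD11cKO libraries, against 46.6 CPM in WT 21, 42.8 CPM in WT 22 and 66.0 CPM in the library labelled WT 23. The last value lay inside the Atg5 CD11cKO range, and WT 21 and 22 lay well below it. Without it, Casp1 averaged 65.8 ± 3.55 CPM in Atg5 CD11cKO (SD, n = 3) and 44.7 ± 2.73 CPM in WT (SD, n = 2), 1.47-fold higher in Atg5 CD11cKO. The log2 fold change of 0.56 (SE 0.08) had an adjusted p of 0.00032 by edgeR, and as labelled it was 0.34 (SE 0.16) with an adjusted p of 0.35. Relative to Nlrp3 within each library, Casp1 counts stood at 1.08, 1.21 and 1.11 in Atg5 CD11cKO, against 0.889 and 0.792 in WT 21 and 22 and 1.06 in the library labelled WT 23. Relative to Gsdmd they stood at 0.378, 0.392 and 0.387 in Atg5 CD11cKO, against 0.286 and 0.275 in WT 21 and 22, and 0.374 in the library labelled WT 23. Both ratios were higher in every Atg5 CD11cKO library than in WT 21 and 22. They follow from the level of Casp1, which passed, beside Nlrp3 and Gsdmd, which did not, and are no further support.

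Casp4 is the mouse gene for caspase-11, which binds cytosolic lipopolysaccharide and cleaves gasdermin D without a sensor, and it is the neighbour of Casp1 on chromosome 9, from 5308828 to 5336783 on the plus strand. It was at 15.5, 14.8 and 14.4 CPM in Atg5 CD11cKO libraries, against 10.8 CPM in WT 21, 13.5 CPM in WT 22 and 13.5 CPM in the library labelled WT 23. Here the library labelled WT 23 was level with WT 22 and below every Atg5 CD11cKO library. The log2 fold change was 0.30 (SE 0.15, adjusted p = 0.17, edgeR) without that library and 0.24 (SE 0.14, adjusted p = 0.42, edgeR) as labelled, and Casp4 did not pass in either. Casp8, the initiator caspase of death receptors, which can also process IL-1β and gasdermin D, lies on chromosome 1 from 58795374 to 58847503 on the plus strand. Casp8 was at 99.7, 94.5 and 107 CPM in Atg5 CD11cKO libraries, against 73.7 CPM in WT 21, 81.1 CPM in WT 22 and 104 CPM in the library labelled WT 23. Its means without that library were 100.3 ± 6.03 CPM in Atg5 CD11cKO (SD, n = 3) and 77.4 ± 5.29 CPM in WT (SD, n = 2). Casp8 had a log2 fold change of 0.38 (SE 0.07, adjusted p = 0.0021, edgeR), and as labelled 0.22 (SE 0.13, adjusted p = 0.43). Of its 50-base words 4.37% are shared with Gm20257, and the other members apart from Naip5 shared at most 1.09%.

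Gsdmd, the pore-forming substrate on chromosome 15 from 75862327 to 75867408 (plus strand), was the member with the highest CPM. It was at 165, 167 and 179 CPM in Atg5 CD11cKO libraries, against 163 CPM in WT 21, 156 CPM in WT 22 and 176 CPM in the library labelled WT 23. Every Atg5 CD11cKO library was above WT 21 and 22, with Atg5 CD11cKO 25 close to WT 21. The log2 fold change was 0.10 (SE 0.05, adjusted p = 0.17, edgeR) without the library labelled WT 23 and 0.05 (SE 0.08, adjusted p = 0.78, edgeR) as labelled. Summed over the 10 members, the level was 675, 671 and 713 CPM in Atg5 CD11cKO libraries, against 582 and 577 CPM in WT 21 and 22 and 703 CPM in the library labelled WT 23.

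**Figure D3:**
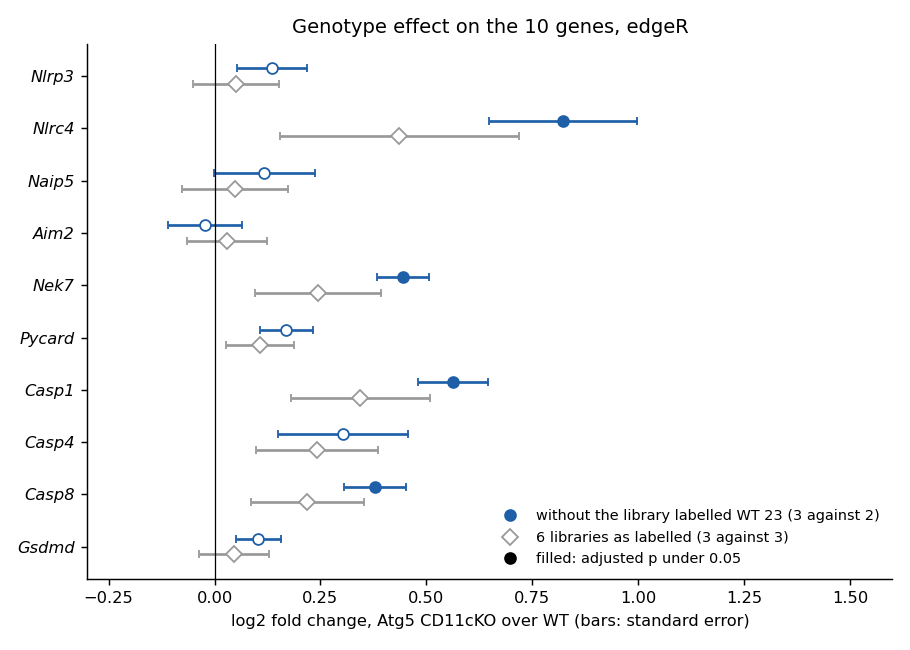
Log2 fold change (Atg5 CD11cKO over WT, bars are standard errors) of each member without the library labelled WT 23 (blue circles) and in the 6 libraries as labelled (grey diamonds), with filled symbols where the adjusted p was under 0.05. The 4 filled circles are Nlrc4 (0.82), Casp1 (0.56), Nek7 (0.45) and Casp8 (0.38), and no diamond is filled.

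For all 10 members the library labelled WT 23 lay closer to the Atg5 CD11cKO mean than to the mean of WT 21 and 22 on the log2 scale. It fell inside the Atg5 CD11cKO range in 6 members, Nlrp3, Naip5, Pycard, Casp1, Casp8 and Gsdmd, and inside the span of WT 21 and 22 in 0. Its log2 difference from the mean of WT 21 and 22 was 0.94 in Nlrc4, 0.56 in Casp1, 0.52 in Nek7 and 0.42 in Casp8. From the Atg5 CD11cKO mean it differed by 0.12 in Nlrc4, 0.01 in Casp1, 0.08 in Nek7 and 0.05 in Casp8. The largest departures from the Atg5 CD11cKO mean were in Aim2, at -0.15, and in Casp4, at -0.14. Aim2 lay almost as far from the mean of WT 21 and 22, at -0.18. In Casp4 the library labelled WT 23, at 13.53 CPM, was just above WT 22, at 13.51 CPM. Shares over all genes were not counted for these tallies. A range of 3 libraries also takes in a further value more readily than a span of 2.

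**Figure D4:**
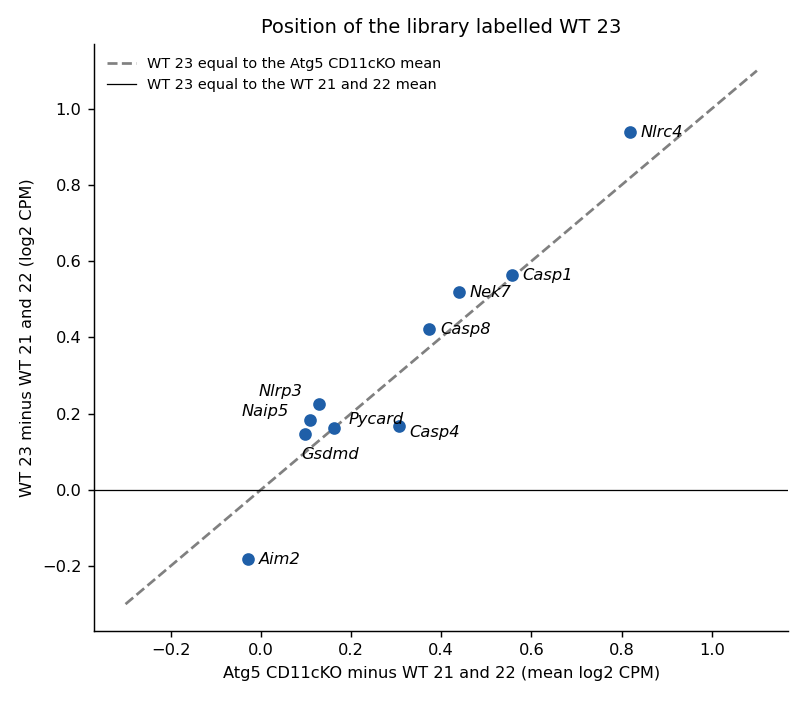
Log2 CPM of the library labelled WT 23 minus the mean of WT 21 and 22 (vertical axis) against the Atg5 CD11cKO mean minus the same WT mean (horizontal axis) for the 10 members, with the line of equality dashed and WT 21 and 22 shared by both axes, so that nothing is read from how closely the points follow it. Nlrc4 lies farthest out, at 0.94 on the vertical axis, Casp4 (0.17) and Aim2 (-0.18) lie below the line, and Aim2 is below 0 on both axes.

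Markers of several cell types moved with these differences, and their part in the result was not tested. Lipid-associated macrophage markers summed to 7558 to 7585 CPM in Atg5 CD11cKO libraries, against 1929 to 1940 CPM in WT 21 and 22 and 7484 CPM in the library labelled WT 23, and 11 of 11 passed as higher without that library. Patrolling monocyte markers summed to 1768 to 1772 CPM in Atg5 CD11cKO libraries, against 1380 to 1441 CPM in WT 21 and 22, with 5 of 8 higher and 0 lower. Mature CCR7-positive DC markers summed to 1559 to 1570 CPM in Atg5 CD11cKO libraries and 775 to 827 CPM in WT 21 and 22, with 7 of 10 higher and 1 lower. For cDC2 markers, with sums of 1186 to 1313 CPM in Atg5 CD11cKO libraries and 864 to 885 CPM in WT 21 and 22, 4 of 9 were higher and 4 lower. Markers of CD11c+ cell identity summed to 61555 to 63604 CPM in Atg5 CD11cKO libraries and 57801 to 58713 CPM in WT 21 and 22, with 7 of 10 higher and 1 lower. The sums of these 5 lists were higher in every Atg5 CD11cKO library than in WT 21 and 22. In the other direction, Kupffer cell markers summed to 1030 to 1053 CPM in Atg5 CD11cKO libraries, against 2087 to 2098 CPM in WT 21 and 22 (9 of 10 lower), and plasmacytoid DC markers to 873 to 885 CPM against 2094 to 2118 CPM (10 of 10 lower). For cDC1 markers, 9 of 10 were lower and 1 higher, with sums of 3521 to 3614 CPM in Atg5 CD11cKO libraries and 4966 to 4992 CPM in WT 21 and 22. Classical monocyte markers summed to 1387 to 1512 CPM in Atg5 CD11cKO libraries and 1665 to 1705 CPM in WT 21 and 22, with 4 of 10 higher and 5 lower. Sums were also lower for NK cell markers, at 425 to 437 CPM in Atg5 CD11cKO libraries and 1360 to 1412 CPM in WT 21 and 22 (6 of 10 lower, 1 higher). T cell markers summed to 260 to 261 CPM in Atg5 CD11cKO libraries and 513 to 528 CPM in WT 21 and 22 (9 of 11 lower). B cell markers summed to 618 to 625 CPM in Atg5 CD11cKO libraries and 762 to 794 CPM in WT 21 and 22 (2 of 10 lower). In each of these lists the sum of the library labelled WT 23 was nearer to the Atg5 CD11cKO sums than to those of WT 21 and 22. Neutrophil markers gave sums of 92.2 to 97.0 CPM in Atg5 CD11cKO libraries and 121 to 128 CPM in WT 21 and 22, with 1 of 9 tested higher and 4 lower. Sinusoidal endothelial markers overlapped, with sums of 285 to 313 CPM in Atg5 CD11cKO libraries and 298 to 301 CPM in WT 21 and 22 (6 of 10 higher, 2 lower). Pancreatic acinar markers summed to 405 to 428 CPM in Atg5 CD11cKO libraries, against 19626 to 20012 CPM in WT 21 and 22 and 392 CPM in the library labelled WT 23 (14 of 14 lower). Hepatocyte markers summed to 1106 to 1113 CPM in Atg5 CD11cKO libraries and 3134 to 3231 CPM in WT 21 and 22 (16 of 18 lower). No marker of these lists had 0 counts over the 6 libraries.

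The rest of the pathway was read from 7 lists without the library labelled WT 23, since by edgeR 0 genes of any of these lists passed as labelled, where 0 to 5 genes per list had an unadjusted p under 0.05. The lists were drawn up with earlier results of these data known, and their calls are set beside the 15.9% higher and 15.1% lower of all genes tested. Of 15 other sensors and NAIPs tested, 6 were higher and 2 lower, with a median log2 fold change of 0.29. Ifi204, a DNA-binding relative of Aim2, was at 101, 112 and 109 CPM in Atg5 CD11cKO libraries, against 60.9 and 65.0 CPM in WT 21 and 22 and 108 CPM in the library labelled WT 23 (log2 fold change 0.78, SE 0.07, adjusted p = 6.9e-06, edgeR). The peptidoglycan receptors Nod2 and Nod1 were higher by log2 0.87 (SE 0.14) and 0.42 (SE 0.08). Lower were Nlrc5, the transactivator of MHC class I genes, by -0.57 (SE 0.07), and the sensor Nlrp1b, by -0.66 (SE 0.18). In both, the library labelled WT 23 lay above every Atg5 CD11cKO library and below WT 21 and 22. Nlrc5 was at 77.7 to 89.0 CPM in Atg5 CD11cKO libraries, 118 and 126 CPM in WT 21 and 22 and 108 CPM in WT 23. For Nlrp1b these values were 7.40 to 10.2, 12.9 and 14.3, and 12.2 CPM. As labelled the log2 fold changes were -0.51 and -0.61, and neither passed.

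Of 6 other caspases tested, 1 was higher and 3 lower, with a median log2 fold change of -0.30. Casp6 and Casp2 were lower, with log2 fold changes of -0.50 (SE 0.07) and -0.36 (SE 0.06). Casp9, the initiator in the apoptosome, was higher by 0.45 (SE 0.08) on the log2 scale. Of 8 other gasdermin, membrane rupture and membrane repair genes tested, 2 were higher and 0 lower, with a median of 0.06. Both encode parts of the ESCRT machinery, which reseals gasdermin pores, Vps4b (0.33, SE 0.07) and Chmp3 (0.28, SE 0.07).

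**Figure D5:**
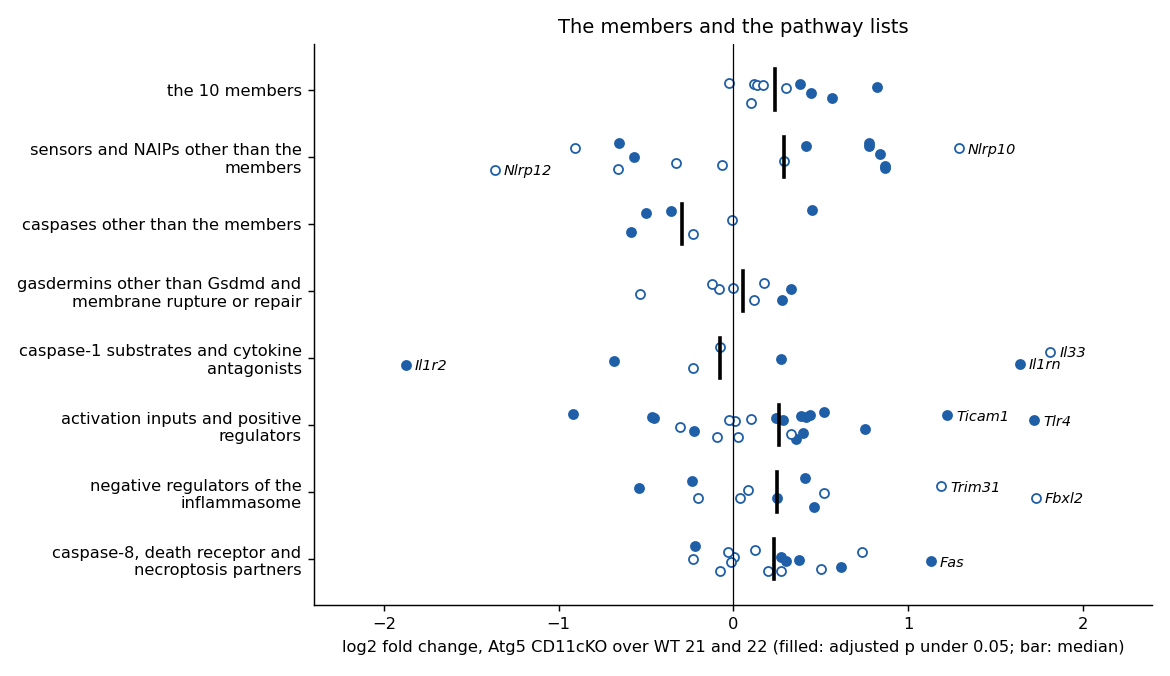
Log2 fold changes (Atg5 CD11cKO over WT 21 and 22) of the members and of the genes tested in 7 pathway lists, 1 point per gene, filled where the adjusted p was under 0.05, with the median as a black bar. The medians run from -0.30 for other caspases to 0.29 for other sensors, with Il1rn and Il1r2 far apart on the line of caspase-1 substrates and cytokine antagonists.

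In the list headed caspase-1 substrates and cytokine antagonists, 2 of 7 genes were higher and 2 lower, with a median of -0.07. Of the cytokines that caspase-1 matures, Il1b passed and Il18 did not. Il18 was at 26.4, 24.0 and 24.0 CPM in Atg5 CD11cKO libraries, against 31.7 and 26.7 CPM in WT 21 and 22 (log2 fold change -0.23, adjusted p = 0.16, edgeR). The list also holds Il1a, an IL-1 family cytokine that is not read here as a caspase-1 substrate. Il1b was at 652, 651 and 655 CPM in Atg5 CD11cKO libraries, against 538 and 545 CPM in WT 21 and 22 and 655 CPM in the library labelled WT 23 (log2 fold change 0.27, SE 0.03, adjusted p = 2.8e-05, edgeR). Il1a was lower, at 38.4, 40.2 and 40.8 CPM in Atg5 CD11cKO libraries and 63.2 and 65.3 CPM in WT 21 and 22 (log2 fold change -0.68, SE 0.08). Of genes that restrain IL-1, 1 was higher and 1 lower. The receptor antagonist Il1rn was at 143, 121 and 133 CPM in Atg5 CD11cKO libraries, against 41.9 and 43.2 CPM in WT 21 and 22 and 124 CPM in the library labelled WT 23 (log2 fold change 1.64, SE 0.08). The decoy receptor Il1r2 was at 44.5, 39.7 and 45.7 CPM in Atg5 CD11cKO libraries, against 160 and 159 CPM in WT 21 and 22 and 42.3 CPM in the library labelled WT 23 (log2 fold change -1.88, SE 0.07).

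Of 22 activation inputs and positive regulators, 11 were higher and 4 lower, with a median log2 fold change of 0.26. Tlr4, the lipopolysaccharide receptor that primes Nlrp3, was at 34.3, 37.3 and 35.2 CPM in Atg5 CD11cKO libraries, against 10.3 and 11.3 CPM in WT 21 and 22 and 31.4 CPM in the library labelled WT 23 (log2 fold change 1.72, SE 0.12, adjusted p = 6.1e-07, edgeR). Its adaptor Myd88 (0.40, SE 0.05) and Clic4, a chloride intracellular channel protein placed upstream of NLRP3 (0.44, SE 0.03), were also higher. Irf8, a transcription factor that drives Naip gene expression and DC identity, was lower (-0.45, SE 0.02), as were Txnip (-0.46, SE 0.04) and the cation channel Trpm2 (-0.92, SE 0.08). Of 11 negative regulators, 3 were higher and 2 lower, with a median of 0.25. The ubiquitin-editing enzyme A20, encoded by Tnfaip3 (0.46, SE 0.03), its partner Tnip1 (0.41, SE 0.07) and Card19 (0.25, SE 0.08) were higher, and Serpinb9 (-0.54, SE 0.07) and the ubiquitin ligase March7 (-0.24, SE 0.07) were lower. Among 16 partners of Casp8 in death receptor and necroptosis signalling, 5 were higher and 1 lower, with a median of 0.23. Cflar, the catalytically inactive relative that binds caspase-8, was at 70.1, 69.0 and 69.6 CPM in Atg5 CD11cKO libraries, against 46.8 and 44.3 CPM in WT 21 and 22 and 69.2 CPM in the library labelled WT 23 (log2 fold change 0.62, SE 0.07, adjusted p = 5.8e-05, edgeR). The death receptor Fas (1.13, SE 0.16) and Traf2 (0.38, SE 0.08) were higher, and Bid, a caspase-8 substrate that carries the signal to mitochondria, was lower (-0.22, SE 0.07).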

How the data were processed

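RNA-seq of 6 libraries, 3 Atg5 CD11cKO and 3 WT, was analysed. The deposited table of estimated counts per gene was made by the authors on mm10 with tools that the submitters' processing notes name as STAR 2.5.3a, Partek and, for base calls, bcl2fastq 2.17.1.14. Neither the counting step nor its use of strand is given in the sources used here. The authors also deposited a normalized signal, which equals the estimated count plus 1 times 1 factor per library and was used as an alternative.

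Estimated counts were rounded, filtered by filterByExpr and scaled with TMM factors. The genotype effect was tested with the quasi-likelihood test of edgeR 4.0.16 (R 4.3.3) with Benjamini-Hochberg adjustment over all genes tested at 0.05, after the code had been checked on simulated counts. The SE of a log2 fold change was taken as its size over the root of F. SD in CPM is over libraries. DESeq2 1.42.0 and limma 3.58.1 were alternatives, together with a filter of 1 CPM in 3 libraries or none, RLE factors or plain library totals, the log2 of the deposited signal (pseudocount 1 or 0.1) in limma, and omission of each library in turn. Exon lengths and positions came from GENCODE vM21, matched by coordinates (99.9% of genes), and promoters from RefSeq (GRCm38.p6). The chi-square between libraries used genes with at least 100 counts in the pair.

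The 10 members, the 7 pathway lists, the 16 marker lists, the motifs and the omission of the library labelled WT 23 were chosen with earlier results of these data known. Named were all members, Atg5, Itgax, the other Naip genes, up to 3 genes per list and direction with the lowest adjusted p and a mean of at least 1 CPM, and the genes closest in pattern to Nlrp3, Casp1 and Gsdmd. No set test was run. A gene that the rule would name is not reported here.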

Additional observations from a re-analysis of the deposited data

How the results depend on the processing

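As labelled, the number of members that passed as higher was 0 under every alternative that kept all 6 libraries, and leaving out 1 library gave 0 to 4, with the 4 reached without the library labelled WT 23. Without that library the number was 4 under every alternative except library totals, which gave 5 by adding Pycard (log2 fold change 0.18, adjusted p = 0.044). No member passed as lower under any alternative. Over these alternatives the highest adjusted p was 0.030 for Nlrc4, 0.019 for Casp8, 0.0029 for Casp1 and 0.0018 for Nek7. The sign turned in members that did not pass. As labelled, Naip5 ran from -0.03 to 0.13 on the log2 scale when 1 library was left out, negative without WT 22 (-0.029) and without Atg5 CD11cKO 27 (-0.032), and Aim2 from -0.023, without the library labelled WT 23, to 0.088. Without that library, Aim2 ran from -0.071 to 0.033, positive when WT 21 (0.033) or Atg5 CD11cKO 26 (0.0056) was also left out, where a lone WT library is assumed to vary like the other group. The cause was not tested. No paired analysis was possible because the genotypes share no replicate number. With 2 libraries in an arm, the spread of WT rests on a single pair, and errors carry counting and library spread only.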

Other observations

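The genes closest in pattern to a member were sought among 9285 genes of at least 10 CPM, by the mean absolute distance of log2 CPM, each centred on its own mean, over the 6 libraries. The distances describe these libraries, which share depth and the split between WT 21 and 22 and the others, and were not tested. Closest to Nlrp3 were Stk40 (0.020), Pnpt1 (0.023) and Tent5a (0.026). Closest to Casp1 were Msrb1 (0.018), Tmem159 (0.019) and Dnajb1 (0.024). Msrb1, a methionine sulfoxide reductase, was at 41.2, 45.3 and 46.2 CPM in Atg5 CD11cKO libraries, against 32.0 and 28.8 CPM in WT 21 and 22 and 44.5 CPM in the library labelled WT 23. Dnajb1, a heat-shock co-chaperone, was at 246, 252 and 262 CPM in Atg5 CD11cKO libraries, against 175 and 159 CPM in WT 21 and 22 and 254 CPM in the library labelled WT 23. Closest to Gsdmd were Tcirg1 (0.019) and Atp6v1f (0.019), which both encode subunits of the proton pump of lysosomes, and the pseudogene Gm3608 (0.020). Tcirg1 was at 337, 339 and 359 CPM in Atg5 CD11cKO libraries, against 344 and 321 CPM in WT 21 and 22 and 358 CPM in the library labelled WT 23.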
